A study of Mus musculus with 12 samples.

Results

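Prolactin receptor signaling, the luminal transcription factors and the steroid hormone receptors of the mammary gland were described here in PyMT tumors through 10 genes: Prlr, Stat5a, Stat5b, Cish, Socs2, Elf5, Gata3, Foxa1, Esr1 and Pgr. The genes were chosen by name for these roles, with earlier results of these data known, and each was found once by its symbol among the 21960 genes listed for every tumor. Levels are in TPM by the authors' description, a share of all transcripts that is scaled for transcript length, so that levels of different genes can be set side by side. The listed genes sum to 609418 to 725506 TPM per tumor, so part of the transcripts belongs to genes that are not listed.

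The study asked whether doxorubicin (DOX), a chemotherapeutic that damages DNA, adds to PD-1 blockade, which releases T cells from an inhibitory receptor. Total RNA of 12 snap frozen whole mammary tumors, 3 per group, was sequenced. All mice were females of the C57BL/6 strain that carry the polyoma virus middle T oncoprotein (PyMT) behind the MMTV promoter. P-values measure the spread between these tumors, and the sequencing depth of each is unknown, since TPM keeps none. The age of the mice at sampling was not given in the sources used here.

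IgG1 mice received an isotype control antibody and anti-PD-1 mice the PD-1 blocking clone 4H2, at 20 mg/kg first and then at 10 mg/kg every 6 days until day 18, from a first tumor of 0.6 cm in diameter. DOX/IgG1 and DOX/anti-PD-1 mice received 5 mg/kg doxorubicin and, 1 day later, 10 mg/kg of the respective antibody, weekly for 5 weeks from a first tumor of 1 cm. Doxorubicin therefore cannot be told apart from the larger starting size, the other antibody schedule and the longer course of dosing. The MMTV promoter that drives the oncoprotein is itself a mammary, hormone-responsive promoter, and whole tumors hold stroma, fat and immune cells beside epithelium. In such tissue, fewer cells of a type and less RNA per cell cannot be told apart.

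In the mammary gland, pituitary prolactin binds its receptor on luminal cells, the receptor-bound kinase Jak2 phosphorylates STAT5, and STAT5 enters the nucleus to activate differentiation and milk genes together with its own feedback inhibitors. Estrogen and progesterone act mainly on a hormone-sensing luminal population that carries Esr1, Pgr and Foxa1, while Elf5 marks the alveolar luminal lineage that makes milk. Gata3 is needed in both for luminal fate.

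DOX/IgG1 replicate 1 stood apart from the other tumors. It had 8104 of 21960 genes at 0 TPM, against 6534 to 7730 in the other 11, and its mean Pearson correlation with the other 11 tumors across genes, 0.937, was the lowest of the 12, with DOX/anti-PD-1 replicate 3 next at 0.943. Its count of genes at 1 TPM or more, 13263, was not the lowest, since IgG1 replicate 1 had 13238. The header over its values also carries the word "test" after the sample name. It held the lowest level of the 12 tumors for 6 of the 10 genes (Prlr, Stat5a, Stat5b, Gata3, Foxa1 and Esr1), whereas DOX/IgG1 replicates 2 and 3 held the 2 highest levels for 5 (Prlr, Gata3, Foxa1, Esr1 and Pgr). Results that rest on it are given with and without it.

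The promoter windows that hold a searched motif are shown because Stat5a, Stat5b and Foxa1, whose proteins recognise such letters, are among the 10 genes. Windows of 300 bases (250 before and 50 after a start site) from RefSeq on GRCm38.p6 were given for 9 of the 10 genes, in 15 windows; Socs2 was not among them. Searched on both strands were TTCNNNGAA, the core that STAT5 proteins recognise, TGTTTAC, the core of forkhead proteins, and the estrogen response element. A further motif searched on both strands was AGATAA, known from zinc finger factors of the kind to which Gata3 belongs. Of all 32851 promoter windows, 8.30% held TTCNNNGAA, 3.65% TGTTTAC, 11.2% AGATAA and 0.07% the estrogen response element. None of the 15 windows held AGATAA or the estrogen response element. Capitals mark matches to TTCNNNGAA in Cish, Esr1 and Prlr and to TGTTTAC, on either strand, in Foxa1 and Prlr; no 2 matches overlap. The windows lie at chr9:107296409-107296708 (plus strand) for Cish, chr12:57546062-57546361 (minus strand) for Foxa1, chr10:4709908-4710207 (plus strand) for Esr1 and chr15:10223656-10223955 (plus strand) for Prlr.
Cish: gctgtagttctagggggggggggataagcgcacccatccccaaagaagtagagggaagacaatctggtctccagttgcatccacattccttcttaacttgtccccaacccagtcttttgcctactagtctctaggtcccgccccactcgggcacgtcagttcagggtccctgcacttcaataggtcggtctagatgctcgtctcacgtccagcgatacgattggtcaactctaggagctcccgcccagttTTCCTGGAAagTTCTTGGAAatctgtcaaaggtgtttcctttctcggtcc
Foxa1: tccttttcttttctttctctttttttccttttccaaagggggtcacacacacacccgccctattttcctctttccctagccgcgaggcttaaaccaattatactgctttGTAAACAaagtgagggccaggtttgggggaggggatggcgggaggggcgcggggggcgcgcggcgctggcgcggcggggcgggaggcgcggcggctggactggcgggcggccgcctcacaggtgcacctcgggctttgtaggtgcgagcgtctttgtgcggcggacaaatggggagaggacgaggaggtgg
Esr1: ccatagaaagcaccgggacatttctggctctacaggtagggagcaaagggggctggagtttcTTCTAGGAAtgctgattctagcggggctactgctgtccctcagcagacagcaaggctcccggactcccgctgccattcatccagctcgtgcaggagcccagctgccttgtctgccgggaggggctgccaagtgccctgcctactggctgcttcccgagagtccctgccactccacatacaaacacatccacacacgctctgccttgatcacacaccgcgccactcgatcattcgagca
Prlr: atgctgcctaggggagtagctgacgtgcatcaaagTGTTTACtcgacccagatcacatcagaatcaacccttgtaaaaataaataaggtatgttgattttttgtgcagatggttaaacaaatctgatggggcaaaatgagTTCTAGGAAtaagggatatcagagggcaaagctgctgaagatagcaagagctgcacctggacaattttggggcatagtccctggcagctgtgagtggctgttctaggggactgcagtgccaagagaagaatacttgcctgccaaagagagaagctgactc

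The Cish window held 2 TTCNNNGAA matches, centred 4 and 15 bases past the start site, and 0.457% of all windows held 2 or more. Those of Esr1 (1 of 2 windows) and Prlr (1 of 3 windows) held 1 each, centred 184 and 106 bases before their start. The forkhead match lay 138 bases before the start in Foxa1 and 212 in Prlr. The first 50 bases after the start of the Prlr window were not all in an annotated transcript, those of the other windows were. A match is a description of these letters, and no binding was measured.

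Ordered by mean level over the 12 tumors, Prlr came first with 218 TPM ± 115 (SD, n = 12), above 97.9% of the genes listed. Gata3 followed with 149 ± 55.2 TPM and Elf5 with 117 ± 29.6. Prlr exceeded Gata3 in 9 of 12 tumors and Gata3 exceeded Elf5 in 9 of 12, so these neighbours were not separated beyond their spread, whereas Elf5 exceeded Stat5b in 12 of 12. Stat5b (53.8 ± 16.9 TPM), Socs2 (43.7 ± 11.8), Pgr (43.1 ± 51.9) and Stat5a (41.1 ± 21.4) lay close together, and Pgr exceeded Stat5a in only 4 of 12 tumors despite its higher mean. Esr1 (25.3 ± 20.2 TPM), Foxa1 (22.0 ± 20.9) and Cish (10.4 ± 6.86) were lowest. All 10 genes reached 1 TPM in every tumor, so the filter on low values removed none of them.

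**Figure D1:**
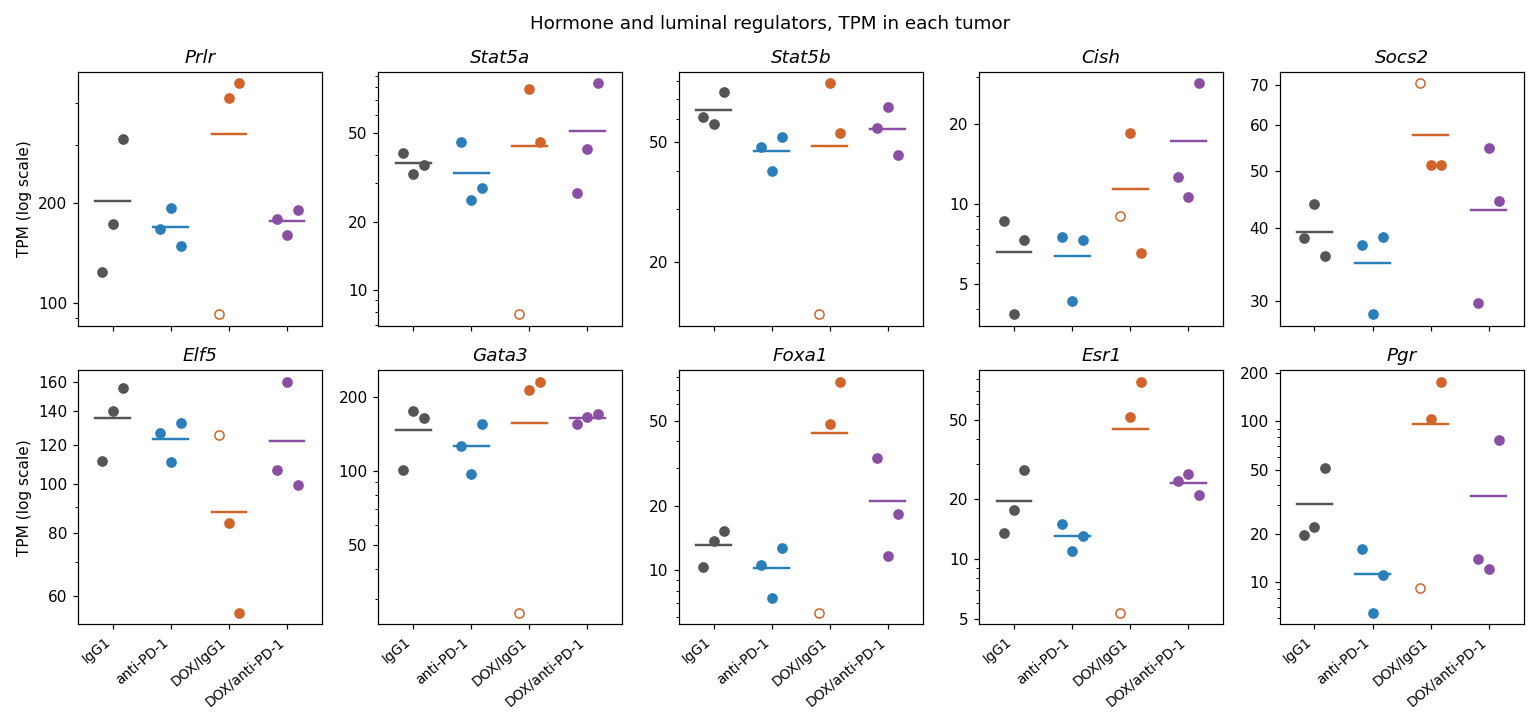
TPM on a log scale (y axis, own range per panel) of the 10 genes in each tumor by treatment group (x axis, 3 points each; lines are group means, and the open point is DOX/IgG1 replicate 1). For Foxa1, Esr1 and Pgr the other 2 DOX/IgG1 tumors lie highest of all 12 (48.3 and 76.2 TPM for Foxa1) and the open point near the bottom.

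Levels between tumors spread most for Pgr, with the highest tumor 27.4-fold above the lowest, followed by Esr1 (14.4-fold), Foxa1 (12.1-fold) and Stat5a (10.7-fold), and the narrowest ranges were those of Socs2 (2.47-fold) and Elf5 (2.89-fold). The lowest tumor for Esr1, Foxa1 and Stat5a was DOX/IgG1 replicate 1. Without it the range of Pgr stayed at 27.4-fold, those of Foxa1, Esr1 and Stat5a were 10.4-fold, 7.10-fold and 3.30-fold, and the narrowest were those of Socs2 (1.92-fold), Stat5b (1.96-fold) and Gata3 (2.39-fold).

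Prlr (ENSMUSG00000005268, chr15:10177238-10349180 in GRCm38, plus strand) encodes the prolactin receptor. Its levels in replicates 1, 2 and 3 were 124, 173 and 312 TPM with IgG1, 167, 193 and 148 with anti-PD-1, 92.2, 416 and 459 with DOX/IgG1, and 179, 161 and 190.0 with DOX/anti-PD-1. The 2 highest tumors and the lowest one all belonged to DOX/IgG1, and no pair of groups separated. On the log2(TPM + 1) scale used throughout, the log2 fold change was 0.47 ± 0.60 (SE) for DOX/IgG1 versus IgG1, with an adjusted p of 0.866. Without DOX/IgG1 replicate 1 it was 1.21 ± 0.37 with an adjusted p of 0.229, and without replicate 3 of that group it was 0.06 (adjusted p of 0.997).

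Prl itself, the gene of the ligand, was listed at 0 in all 12 tumors. Of the 12 prolactin pathway genes listed beside the members, Prl included, 10 reached 1 TPM in every tumor, and the highest mean levels were those of Nfib (466 TPM), a factor that acts beside STAT5 on milk genes, Ghr (109.8), the growth hormone receptor, and Ptpn1 (74.0), a phosphatase. None of the 10 or 11 that could be tested in a comparison was called in either direction, and at most 1 had an unadjusted p below 0.05. Their median log2 fold change was -0.05 for DOX/IgG1 versus IgG1 and 0.03 for DOX/anti-PD-1 versus anti-PD-1, against 0.12 and 0.11 over all genes tested. Without DOX/IgG1 replicate 1 the median for DOX/IgG1 versus IgG1 was 0.14 against 0.15 over all genes, again with none called.

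Stat5a and Stat5b, the signal transducers below the receptor, are neighbours on chromosome 11. Stat5a (ENSMUSG00000004043) spans chr11:100859351-100885169 on the plus strand and Stat5b (ENSMUSG00000020919) chr11:100780731-100850724 on the minus strand. Of the distinct 75-base stretches of the Stat5a transcripts, 387 of 7557 (5.12%) also occur in Stat5b transcripts, where they make up 6.99%, so reads of 75 bases from these stretches could be assigned to either gene. Stat5a also shares 72 exon bases with Stat3 on the opposite strand, and although the library kit was a stranded one, use of strand in counting was not stated in the sources used here.

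Stat5a, the form that predominates in mammary differentiation, was at 41.0, 32.9 and 36.0 TPM with IgG1, 45.5, 25.2 and 28.5 with anti-PD-1, 7.78, 78.5 and 45.6 with DOX/IgG1, and 27.1, 42.4 and 83.3 with DOX/anti-PD-1. IgG1 and anti-PD-1 tumors lay within 25.2 to 45.5 TPM, and the DOX tumors spread below and above that range. Stat5b was at 60.7, 57.7 and 73.7 TPM with IgG1, 48.4, 40.1 and 52.1 with anti-PD-1, 13.3, 78.7 and 53.8 with DOX/IgG1, and 56.0, 65.5 and 45.4 with DOX/anti-PD-1. All 3 anti-PD-1 tumors lay below all 3 IgG1 tumors for Stat5b, with a log2 fold change of -0.44 ± 0.23 (SE) and an adjusted p of 0.996.

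For DOX/IgG1 versus IgG1 the log2 fold change was -0.23 for Stat5a and -0.71 for Stat5b, and without DOX/IgG1 replicate 1 it was 0.70 and 0.03. The sign therefore rested on 1 tumor. Stat5a lay below Stat5b in 11 of 12 tumors: the within-tumor ratio ran from 0.484 to 0.997 and was 1.84 in DOX/anti-PD-1 replicate 3.

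Cish (ENSMUSG00000032578, chr9:107296026-107302784, plus strand) is a STAT5 target whose product restrains cytokine receptor signaling, and its promoter window is the one with 2 STAT5 core matches. Its levels were 8.60, 3.83 and 7.32 TPM with IgG1, 7.49, 4.32 and 7.28 with anti-PD-1, 9.02, 18.4 and 6.50 with DOX/IgG1, and 12.6, 10.6 and 28.3 with DOX/anti-PD-1. The 3 DOX/anti-PD-1 tumors all lay above the 3 anti-PD-1 tumors, whereas DOX/IgG1 and IgG1 overlapped. Cish had a log2 fold change of 1.21 ± 0.42 (SE) for DOX/anti-PD-1 versus anti-PD-1 (adjusted p of 0.504; 0.80 without DOX/anti-PD-1 replicate 3) and 0.93 ± 0.33 for doxorubicin averaged over both antibodies (adjusted p of 0.309). Of the Cish exon bases, 7.46% and 4.07% are also exon bases of 2 genes on the opposite strand, whose reads cannot be told apart from its own if strand was not used.

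Socs2 (ENSMUSG00000020027, chr10:95385362-95417180, minus strand), another STAT5 target, encodes an inhibitor of growth hormone and prolactin receptor signaling. Its levels were 38.5, 43.9 and 35.8 TPM with IgG1, 37.4, 28.5 and 38.6 with anti-PD-1, 70.5, 51.2 and 51.2 with DOX/IgG1, and 29.8, 54.8 and 44.4 with DOX/anti-PD-1. All 3 DOX/IgG1 tumors exceeded all 3 IgG1 tumors, and here replicate 1 was the highest of the 12. Socs2 had a log2 fold change of 0.53 ± 0.245 (SE, adjusted p of 0.663), and 0.38 ± 0.25 without that tumor. Of its distinct 75-base stretches, 3.16% also occur in other genes. The highest tumor for Cish was in DOX/anti-PD-1 and that for Socs2 in DOX/IgG1.

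Milk genes, the classical output of STAT5 in alveolar cells, were led by Csn3 (mean of 5318 TPM), Mfge8 (420.3) and Lalba (316). Csn3, the kappa casein gene, was at 6987, 4472 and 7858 TPM with IgG1 and at 812, 3071 and 2403 with DOX/IgG1, and these groups did not overlap. Its log2 fold change was -1.78 ± 0.51 (SE, adjusted p of 0.479). None of the 12 milk genes tested was called for DOX/IgG1 versus IgG1; 5 had an unadjusted p below 0.05, and the list's median was -1.55 against 0.12 over all genes. Without DOX/IgG1 replicate 1, Csn3 was at -1.20 ± 0.35 (adjusted p of 0.212) and the list's median at -1.01, and for doxorubicin averaged over both antibodies Csn1s1 and Lalba were then called lower. In DOX/anti-PD-1 versus anti-PD-1 the median was 0.44 against 0.11, with 0 called and 7 of 12 above 0. The 2 at an unadjusted p below 0.05 were both lower with DOX and did not overlap between groups: Csn1s1 at -1.78 ± 0.29 (SE, adjusted p of 0.307) and Wap at -1.27 ± 0.45 (0.511). For DOX/anti-PD-1 versus DOX/IgG1, 10 of 12 were above 0 and 2 below, with a median of 1.25 against -0.04 over all genes. There, 0 were called and 7 had an unadjusted p below 0.05, against 4.7% of all genes. Without DOX/IgG1 replicate 1 that median was 0.91 against -0.07, with 0 called and 5 at an unadjusted p below 0.05, against 7.54%.

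Elf5 (ENSMUSG00000027186, chr2:103411688-103450989, plus strand) encodes the ETS factor of the alveolar luminal lineage. Its levels were 111, 140.3 and 156 TPM with IgG1, 126, 111 and 132 with anti-PD-1, 126, 83.8 and 55.5 with DOX/IgG1, and 107, 160.1 and 99.9 with DOX/anti-PD-1. The 2 lowest tumors of the 12 were DOX/IgG1 replicates 3 and 2, the same tumors that were highest for Foxa1, Esr1 and Pgr. The log2 fold change for DOX/IgG1 versus IgG1 was -0.68 ± 0.315 (SE, adjusted p of 0.663), and -0.97 ± 0.28 with an adjusted p of 0.206 without replicate 1. Leaving out DOX/IgG1 replicate 3 instead gave -0.39 with an adjusted p of 0.933.

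Gata3 (ENSMUSG00000015619, chr2:9857078-9890034, minus strand) encodes the zinc finger factor that maintains luminal fate. It was at 101, 177 and 165 TPM with IgG1, 127, 97.1 and 155 with anti-PD-1, 26.4, 214 and 232 with DOX/IgG1, and 156, 166 and 171 with DOX/anti-PD-1. DOX/anti-PD-1 tumors lay within a narrow band (164 ± 7.96 TPM, SD, n = 3) just above all anti-PD-1 tumors, from which median-of-ratios scaling no longer separated them, while DOX/IgG1 held both the lowest and the 2 highest levels. Gata3 had a log2 fold change of 0.40 ± 0.23 (SE, adjusted p of 0.650) for DOX/anti-PD-1 versus anti-PD-1, which was 0.23 without anti-PD-1 replicate 2. For DOX/IgG1 versus IgG1 it was -0.38 ± 0.73, and 0.63 ± 0.29 without DOX/IgG1 replicate 1 or -0.91 without replicate 3.

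Foxa1 (ENSMUSG00000035451, chr12:57540628-57546916, minus strand) encodes a forkhead pioneer factor that opens chromatin for the estrogen receptor. It was at 10.3, 13.7 and 15.2 TPM with IgG1, 10.6, 7.36 and 12.7 with anti-PD-1, 6.29, 48.3 and 76.2 with DOX/IgG1, and 33.4, 11.6 and 18.3 with DOX/anti-PD-1. DOX/IgG1 replicates 2 and 3 exceeded every other tumor, and replicate 1 lay below every other tumor. The log2 fold change for DOX/IgG1 versus IgG1 was 1.12 ± 0.76 (SE, adjusted p of 0.763). Without replicate 1 it was 2.15 ± 0.33 with an adjusted p of 0.0445, and Foxa1 was called in that fit of 2 against 3 tumors; without DOX/IgG1 replicate 3 it was 0.45, and over all alternatives but the omission of replicate 1 the adjusted p ran from 0.616 to 0.954. In DOX/anti-PD-1 versus anti-PD-1 it was 0.89 ± 0.41 with an adjusted p of 0.585, and 0.51 without DOX/anti-PD-1 replicate 1.

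Of the 14 other luminal regulators, Trps1 (mean of 776 TPM), Xbp1 (689) and Ehf (526) were the most abundant. Xbp1, a factor of the secretory pathway, was the only one called in any comparison of all tumors. It was at 779.6, 1019 and 860.0 TPM with IgG1, 968, 1004 and 815 with anti-PD-1, 303, 368 and 297 with DOX/IgG1, and 593, 718 and 544 with DOX/anti-PD-1. Every DOX tumor lay below every tumor without DOX, DOX/IgG1 replicate 1 included, and Xbp1 fell by 1.02 ± 0.16 (SE) on the log2 scale for doxorubicin averaged over both antibodies, with an adjusted p of 0.0451. This call was lost without IgG1 replicate 2 or without anti-PD-1 replicate 1, where no gene was called. Whether the call of Xbp1 held when other tumors were left out, DOX/IgG1 replicate 1 aside, or under other processing was not followed. Without DOX/IgG1 replicate 1 the average was -1.0, at the limit on size and so not called, with an adjusted p of 0.0173. Xbp1 was then called for DOX/IgG1 versus IgG1 (-1.41 ± 0.25, adjusted p of 0.0706). With all tumors it was not called in that comparison (-1.45 ± 0.23, adjusted p of 0.306). Nor was it for DOX/anti-PD-1 versus anti-PD-1 (-0.59 ± 0.24, adjusted p of 0.540). With all tumors, the list's median for doxorubicin averaged over both antibodies was -0.02 against 0.12 over all genes, with 0 of 14 called higher and 1 lower.

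Esr1 (ENSMUSG00000019768, chr10:4611593-5005614, plus strand) encodes estrogen receptor alpha. Its levels were 13.5, 17.6 and 27.8 TPM with IgG1, 14.9, 10.9 and 13.1 with anti-PD-1, 5.37, 51.3 and 77.5 with DOX/IgG1, and 24.5, 26.6 and 20.9 with DOX/anti-PD-1. The DOX/anti-PD-1 tumors all exceeded the anti-PD-1 tumors, and within DOX/IgG1 the highest tumor was 14.4-fold above the lowest. Esr1 had a log2 fold change of 0.84 ± 0.27 (SE, adjusted p of 0.501) for DOX/anti-PD-1 versus anti-PD-1 and 0.58 ± 0.82 (adjusted p of 0.878) for DOX/IgG1 versus IgG1. Without DOX/IgG1 replicate 1 the latter was 1.69 ± 0.37 with an adjusted p of 0.125, and without replicate 3 of that group it was -0.12 (0.994).

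Pgr (ENSMUSG00000031870, chr9:8899833-8968611, plus strand) encodes the progesterone receptor and is itself a target of the estrogen receptor. It was at 19.6, 21.9 and 51.0 TPM with IgG1, 16.1, 6.44 and 11.02 with anti-PD-1, 9.20, 103 and 176 with DOX/IgG1, and 13.99, 12.1 and 77.1 with DOX/anti-PD-1. The anti-PD-1 tumors lay below all IgG1 tumors, and in both DOX groups 1 or 2 tumors were far above the rest. Pgr had a log2 fold change of -1.33 ± 0.43 (SE, adjusted p of 0.996) for anti-PD-1 versus IgG1 and 0.98 ± 0.93 (adjusted p of 0.819) for DOX/IgG1 versus IgG1. Without DOX/IgG1 replicate 1 the latter was 2.22 ± 0.44 with an adjusted p of 0.0927, past both limits of the call, whereas without DOX/IgG1 replicate 3 it was 0.16 with an adjusted p of 0.991.

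**Figure D2:**
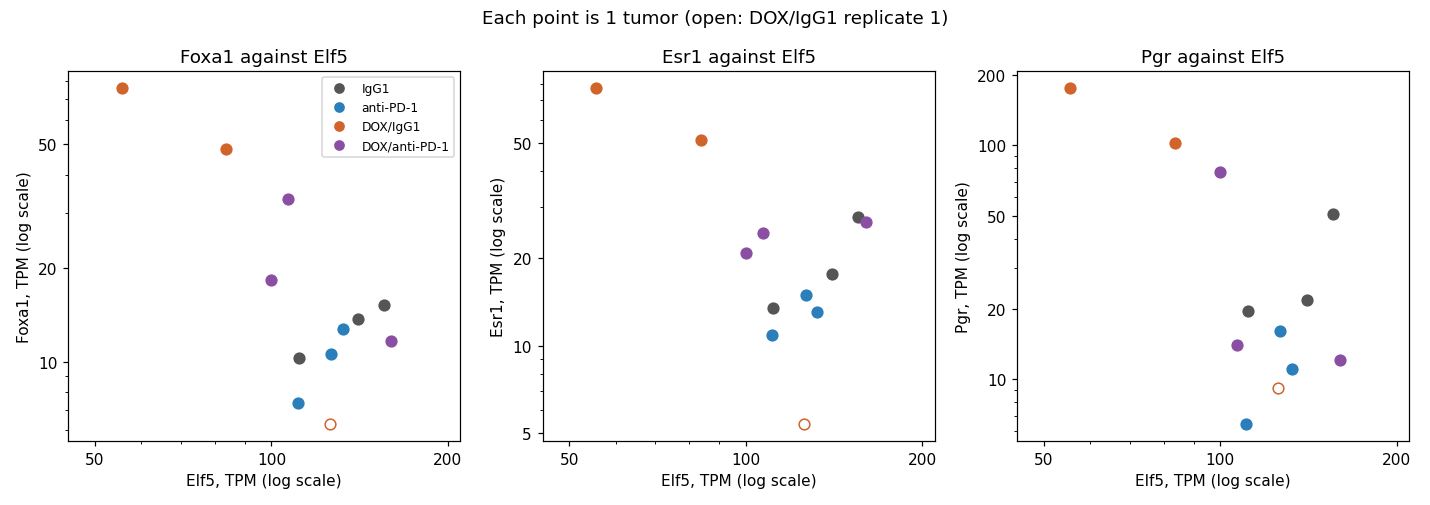
Foxa1, Esr1 and Pgr (y axis, TPM, log scale) against Elf5 (x axis, TPM, log scale), with 1 point per tumor colored by group and DOX/IgG1 replicate 1 open. DOX/IgG1 replicates 2 and 3 lie at the upper left of each panel, at 83.8 and 55.5 TPM of Elf5.

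The Foxa1 to Elf5 ratio within a tumor was 0.0664 to 0.0979 in the 6 tumors without DOX. It was 0.0501, 0.577 and 1.37 in DOX/IgG1 replicates 1, 2 and 3, and 0.313, 0.0727 and 0.183 in DOX/anti-PD-1. The ratio thus ran above the range of the tumors without DOX in 4 of 6 DOX tumors and below it in DOX/IgG1 replicate 1.

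The most abundant of the 12 known targets of the steroid hormones that were listed were Igfbp5 (mean of 3754 TPM), Ccnd1 (99.3), the cyclin D1 gene, and Myb (34.3), while Tff1 and Tff3 were listed at 0 in all tumors. Agr2, which encodes a protein of the secretory pathway, was the only one called. It was at 7.20, 5.47 and 4.25 TPM with IgG1, 6.62, 5.94 and 18.3 with anti-PD-1, 0, 5.66 and 1.37 with DOX/IgG1, and 0 in each tumor with DOX/anti-PD-1. For doxorubicin averaged over both antibodies it fell by 2.36 ± 0.44 (SE) on the log2 scale, with an adjusted p of 0.0951, and by 2.02 with an adjusted p of 0.0255 without DOX/IgG1 replicate 1. This fold change depends on the pseudocount of 1, since 4 of 6 DOX tumors were at 0. The call of Agr2 was lost without IgG1 replicate 2 or without anti-PD-1 replicate 1, where no gene was called. Whether it held when other tumors were left out, DOX/IgG1 replicate 1 aside, or under other processing was not followed. With all tumors, the list's median in that contrast was 0.21 against 0.12 over all genes, with 0 of 9 genes called higher and 1 lower.

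Of the 10 genes, none was called in any of the 6 comparisons by limma when all tumors were used; a gene was called if its log2 fold change exceeded 1 in size at an adjusted p under 0.1. For DOX/IgG1 versus IgG1, 0 of 10 were called and 0 had an unadjusted p below 0.05, against 0.036% and 7.73% of the 13874 genes tested. Groups did not overlap for 1 of 10 (Socs2), against 14% of all genes, and for Elf5 as well under median-of-ratios scaling. Above 0 were 6 of 10 members and 60.6% of all genes. The members' median log2 fold change was 0.50 against 0.12 over all genes, and median-of-ratios scaling moved the median over all genes to 0.01.

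For DOX/anti-PD-1 versus anti-PD-1, 0 of 10 were called, as were 0% of 13736 genes, and 2 (Cish and Esr1) had an unadjusted p below 0.05, against 8.63% of all genes. Groups did not overlap for 3 of 10 (Cish, Gata3 and Esr1, each higher with DOX), against 14.9%, and for Cish and Esr1 only under median-of-ratios scaling. The members' median was 0.45 against 0.11 over all genes, with 9 of 10 members above 0 (Prlr turned below 0 under that scaling) and 60% of all genes. In the same comparison all 8 adipocyte, all 8 fibroblast and all 8 basal markers were above 0, with medians of 1.43, 0.72 and 0.61, and 7, 5 and 4 of them at an unadjusted p below 0.05. Also above 0 were all 8 macrophage markers (median of 0.32), 7 of 8 endothelial (0.30) and 4 of 5 T cell markers (0.99), against 3 of 8 luminal (-0.18) and 4 of 8 skeletal muscle markers (-0.01). No marker was called, and their part was not tested.

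For anti-PD-1 versus IgG1, 0 of 10 were called, as were 0% of 13692 genes, and 1 (Pgr) had an unadjusted p below 0.05, against 4.6% of all genes. Groups did not overlap for 2 of 10 (Stat5b and Pgr, both lower with anti-PD-1), against 9.88%, and for Esr1 as well under median-of-ratios scaling. All 10 log2 fold changes were below 0, from -1.33 to -0.01, except that Cish was at 0.01 under that scaling, and their median was -0.20 against -0.03 over all genes, of which 47.2% were above 0. Leaving out IgG1 replicate 3 put Prlr at 0.20, and leaving out anti-PD-1 replicate 2 put Cish at 0.20. Marker lists lay below 0 in this comparison as well: 8 of 8 fibroblast markers (median of -0.27), and 7 of 8 adipocyte (-0.69), macrophage (-0.29) and luminal (-0.21) markers, 6 of 8 basal (-0.28), endothelial (-0.335) and skeletal muscle (-0.705) markers and 3 of 5 T cell markers (-0.36), with none called. Their part was not tested. This comparison shares its IgG1 tumors with DOX/IgG1 versus IgG1, and its anti-PD-1 tumors with DOX/anti-PD-1 versus anti-PD-1.

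**Figure D3:**
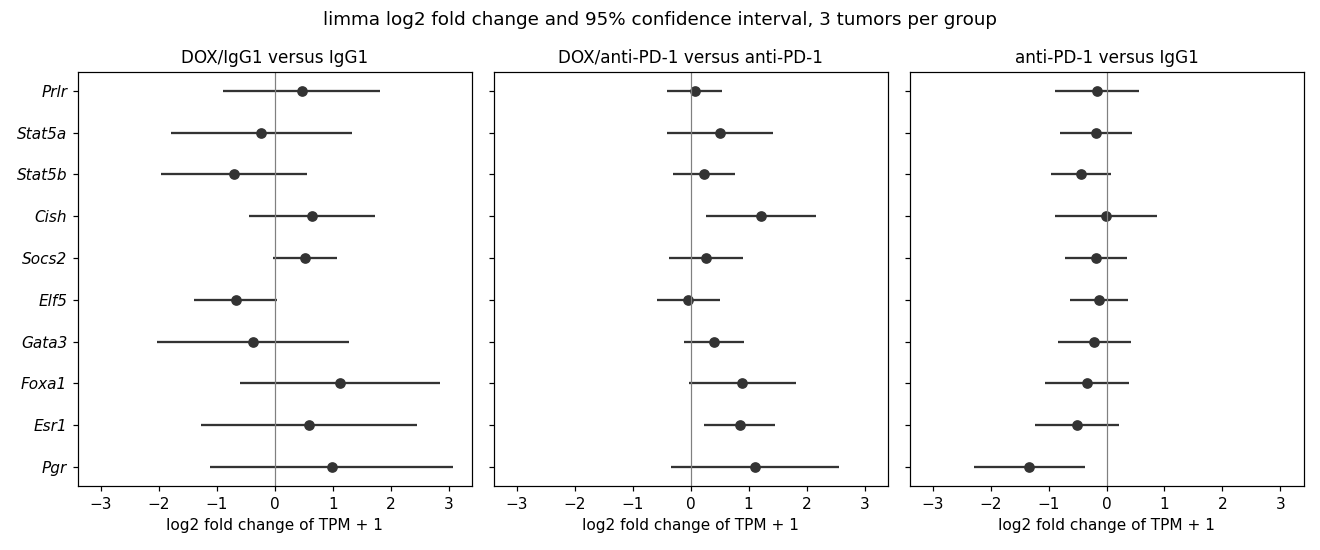
limma log2 fold changes of TPM + 1 (x axis) with 95% confidence intervals for the 10 genes (y axis) in 3 comparisons of 3 against 3 tumors. The intervals of Cish and Esr1 in DOX/anti-PD-1 versus anti-PD-1 and of Pgr in anti-PD-1 versus IgG1 exclude 0 before adjustment over all genes, and those of DOX/IgG1 versus IgG1 are the widest for every gene but Socs2.

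For DOX/anti-PD-1 versus DOX/IgG1, 0 of 10 were called, as were 0% of 13946 genes, and 0 had an unadjusted p below 0.05, against 4.7% of all genes. No member had groups that did not overlap, against 10.2% of all genes. Without DOX/IgG1 replicate 1, 0 of 10 were called against 0.0287%, and 5 had an unadjusted p below 0.05 against 7.54% of all genes. Groups then did not overlap for 6 of 10 (Elf5 higher, and Prlr, Gata3, Foxa1, Esr1 and Pgr lower with anti-PD-1) against 24.7%. In that fit, 4 of 8 basal (median log2 fold change of -0.69) and 2 of 6 T cell markers (-0.85) also had an unadjusted p below 0.05. So had 3 of 8 luminal (0.21) and 3 of 8 fibroblast markers (0.09), the latter Pdgfra, Dcn and Lum, each lower. No marker of these lists was called. Of 5 tested genes typical of salivary type secretion, 4 had an unadjusted p below 0.05 (median of -2.31). Of these, Bpifa2 was called lower, at -5.13 ± 0.56 (SE, adjusted p of 0.0473). It was listed at 0 in every DOX/anti-PD-1 tumor, so the size of this change depends on the pseudocount of 1. The part of all these lists was not tested. The members' log2 fold changes in that fit were -1.31 ± 0.23 (SE, adjusted p of 0.197) for Prlr and -1.36 ± 0.30 (0.297) for Esr1. Foxa1 was at -1.60 ± 0.45 (0.459), Pgr at -2.45 ± 0.71 (0.480) and Elf5 at 0.80 ± 0.31 (0.634). With all tumors Prlr was at -0.56, Esr1 at -0.25, Foxa1 at -0.575, Pgr at -1.21 and Elf5 at 0.51. Leaving out DOX/IgG1 replicate 3 instead put Esr1 at 0.45 and Foxa1 at 0.10.

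For doxorubicin averaged over both antibodies, in a fit of all 12 tumors, 0 of 10 were called, against 0.0882% of 14735 genes, and 1 (Cish) had an unadjusted p below 0.05, against 11.9%. No gene of the 10 separated all DOX tumors from all others, which 0.719% of all genes did. The interaction, whether the DOX effect differs between antibodies, called 0 of 10 against 0.00679% of all genes, with 0 members at an unadjusted p below 0.05 against 4.71%, and the adjusted p of each member was at least 0.993, so no difference between both DOX effects was detectable. Leaving out DOX/IgG1 replicate 1, the interaction called 0 of 10 against 0.00679% of all genes, and 3 members had an unadjusted p below 0.05 against 6.45%. The 3 were Prlr at -1.14 ± 0.43 (SE, adjusted p of 0.703), Foxa1 at -1.26 ± 0.56 (0.746) and Elf5 at 0.93 ± 0.37 (0.703).

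Leaving out DOX/IgG1 replicate 1 raised the number of genes called for DOX/IgG1 versus IgG1 from 5 to 122 (0.879%), 96 higher and 26 lower, and that of members from 0 to 2 of 10 (Foxa1 and Pgr, both higher). Members at an unadjusted p below 0.05 went from 0 to 6 against 13% of all genes, and members whose groups did not overlap from 1 to 8 against 32.6%, with Elf5 the only one of the 8 that was lower. For doxorubicin averaged over both antibodies the count of genes called went from 13 to 301 (2.04%), and 3 of 10 members were called: Foxa1 at 1.52 ± 0.28 (SE, adjusted p of 0.0255), Esr1 at 1.27 ± 0.225 (0.02) and Pgr at 1.67 ± 0.45 (0.0991). No member separated all remaining DOX tumors from all others, which 1.81% of all genes did. With all tumors the average was 1.0 (adjusted p of 0.430) for Foxa1, 0.71 (0.583) for Esr1 and 1.04 (0.544) for Pgr. Leaving out DOX/IgG1 replicate 3 gave 0.67 for Foxa1 and 0.36 for Esr1, and leaving out DOX/anti-PD-1 replicate 3 gave 0.63 for Pgr. Single tumors other than DOX/IgG1 replicate 1 moved the counts of genes called too. For DOX/IgG1 versus IgG1, 0 were called without any 1 of the IgG1 tumors or without DOX/IgG1 replicate 3, and 2 without DOX/IgG1 replicate 2. For the average, 0 were called without IgG1 replicate 2 or anti-PD-1 replicate 1, the calls of Xbp1 and Agr2 included, 2 without DOX/IgG1 replicate 3, 3 without anti-PD-1 replicate 2, 5 and 20 without DOX/anti-PD-1 replicates 1 and 2, and 7 without replicate 3 of that group. DOX/IgG1 replicate 1 was picked out after its values were seen, and no reason to discard it is given in the sources used here.

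**Figure D4:**
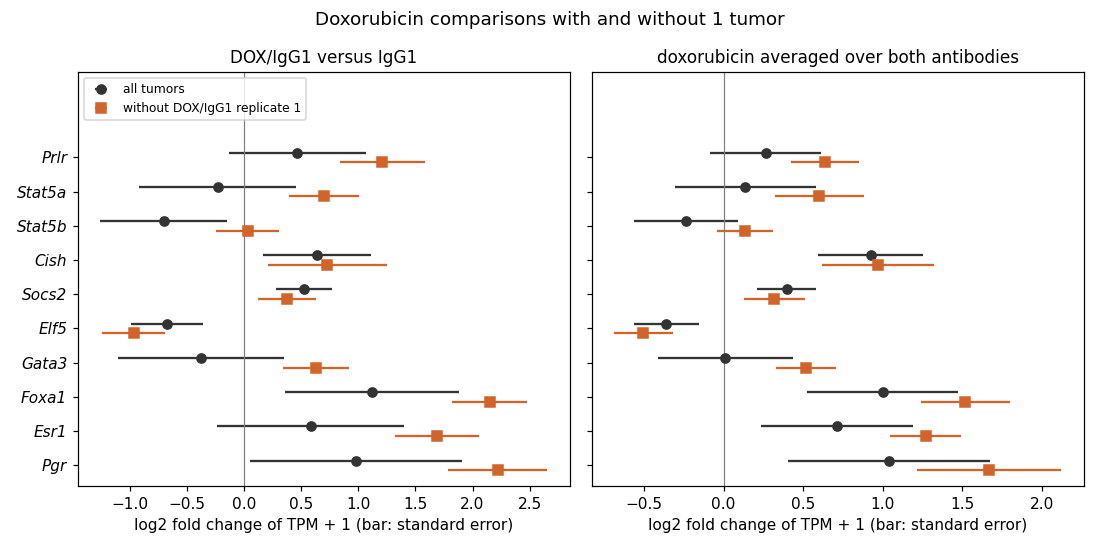
limma log2 fold changes of TPM + 1 (x axis, bars are standard errors) of the 10 genes (y axis) with all tumors (circles) and without DOX/IgG1 replicate 1 (squares), for DOX/IgG1 versus IgG1 and for doxorubicin averaged over both antibodies. Foxa1 moves from 1.12 to 2.15 in the first panel, and Stat5a, Stat5b and Gata3 change sign.

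Sums of marker genes of other cell types differed between these tumors as well. The 8 basal and myoepithelial markers, led by Acta2 and with none at 0 in every tumor, summed to 193 to 510.3 TPM without DOX, to 231, 744 and 1049 in DOX/IgG1 replicates 1, 2 and 3 and to 455 to 627 in DOX/anti-PD-1. Of these 8, 0 were called for doxorubicin averaged over both antibodies with all tumors (0 at an unadjusted p below 0.05), and 4 without DOX/IgG1 replicate 1 (Acta2, Myh11, Oxtr and Cnn1, all higher). The basal keratins were not called in that fit, at -0.16 ± 0.34 (SE) for Krt14, 0.08 ± 0.41 for Krt17 and 0.30 ± 0.44 for Krt5. Nor was Trp63, at 0.72 ± 0.31 with an unadjusted p of 0.0372 and an adjusted p of 0.288. Acta2 alone made up 346 and 507 TPM of the sums in DOX/IgG1 replicates 2 and 3. Krt19 of the luminal, Dcn and Lum of the fibroblast and Cd3g of the T cell markers were also called higher in that fit. So were Bpifa2, Smr3a and Amy1, which are typical of salivary type secretion. Of the 8 adipocyte markers, 0 were called and 6 had an unadjusted p below 0.05 (median of 1.25), against 15.4% of all genes. The 8 luminal markers, led by Epcam, were all above 1 TPM in every tumor and summed to 2317 in DOX/IgG1 replicate 1, 3380 and 3845 in replicates 2 and 3 and 2427 to 3998 elsewhere. Krt19 made up 1261 and 1801 TPM of the sums in replicates 2 and 3, where Epcam was at 522 and 418 against 468 to 954 in the tumors of the other groups. For DOX/IgG1 versus IgG1, 7 of the 8 luminal markers were below 0 and 0 were called; 3 had an unadjusted p below 0.05 and no overlap between groups: Epcam (-0.87 ± 0.23), Cldn7 (-0.75 ± 0.25) and Muc1 (-0.98 ± 0.36). The part of these cell types in the levels of Foxa1, Esr1 and Pgr was not tested.

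Fibroblast markers, led by Col1a1, summed to 546 TPM in DOX/IgG1 replicate 1, the lowest of the 12, and to 1855 and 1348 in replicates 2 and 3, against 710.1 to 1851 in the other 9. Adipocyte markers, led by Cfd, were highest in DOX/IgG1 replicate 2 (973 TPM) and DOX/anti-PD-1 replicate 1 (914), against 104 to 344 elsewhere. T cell markers, led by Cd3e, summed to 57.7 and 46.5 TPM in DOX/IgG1 replicates 2 and 3 and to 7.68 to 39.3 in the other 10 tumors. Macrophage markers, led by C1qa, summed to 648 TPM in DOX/IgG1 replicate 1 and to 301 to 529 elsewhere. Of these 648 TPM, 357 were Cd14, which was at 51.9 to 157 in the other tumors, while Csf1r, at 26.9, was the lowest of the 12 and C1qa was at 94.5. Endothelial markers, led by Pecam1, ran from 96.5 to 193 TPM and skeletal muscle markers, led by Myl1, from 1.03 to 990.3 TPM. No marker of these lists was at 0 in every tumor, and their part in the results was not tested.

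Of 7 genes typical of salivary type secretion, 2 (Bpifa2 and Smr3a) were higher in each DOX/IgG1 tumor than in the other 9 tumors, and the other 5 overlapped. The 7 genes, led by Amy1, summed to 64.4, 110.5 and 118 TPM with DOX/IgG1 and to 5.40 to 26.4 in the other 9 tumors, and Bpifa2 was at 14.4, 21.3 and 53.7 TPM with DOX/IgG1 and listed at 0 in the other 9. The limits of the call were passed by 2 of 5 genes (Bpifa2 and Smr3a) for DOX/IgG1 versus IgG1. Both were listed at 0 in every IgG1 tumor and entered the fit through the DOX/IgG1 tumors alone, the size of their fold changes depends on the pseudocount of 1, and the list was chosen with results known, so these calls are a description. Their part in the levels of the 10 regulators was not tested.

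**Figure D5:**
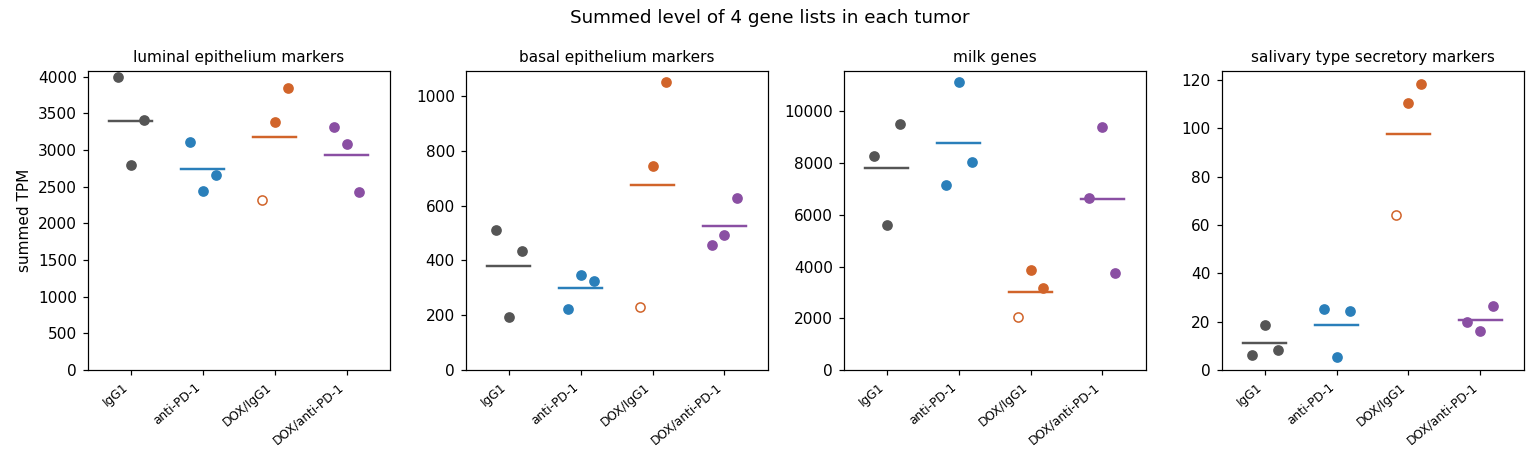
Summed TPM (y axis) of 4 gene lists in each tumor by treatment group (x axis), with lines for group means and DOX/IgG1 replicate 1 open. Basal markers reach 744 and 1049 TPM in DOX/IgG1 replicates 2 and 3, and the salivary type list is above 60 TPM in all 3 DOX/IgG1 tumors only.

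As a description over the 12 tumors, the genes most like each regulator were sought among 11301 genes with a mean of at least 5 TPM, by Pearson correlation of log2(TPM + 1). All points share the 4 groups and the tumor that stands apart. Pgr was most like Gm16485 (r = 0.99), which lies 3180 bases from it on the same strand, and Capn8 (0.97). Esr1 was most like Lhfp (0.96) and Zeb2 (0.95), Foxa1 like Slc12a2 (0.96) and Il18r1 (0.95), and Gata3 like Padi2 (0.97) and Nudt7 (0.96). Prlr was most like Tmem56 (0.95) and Cd164 (0.94), Stat5a like Smurf2 (0.94) and Abcb1a (0.92), and Stat5b like Prom1 (0.95) and Cilp (0.93). Elf5 was most like Dhx57 (0.92) and Hs6st1 (0.91), Socs2 like Npr2 (0.95) and 9130011E15Rik (0.92), and Cish like Atp8b2 (0.89) and Dnal4 (0.88). None of the 10 regulators was among these partners of another.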

How the data were processed

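RNA from 12 PyMT tumors was sequenced with single reads of 75 bases. After trimming (skewer), alignment to mm10 (STAR) and quantification (RSEM), the authors deposited each tumor as log2(TPM + 1), with 21960 genes listed. The log2 step was reversed for levels. Genes at 1 TPM or more in at least 3 of the tumors compared were tested on log2(TPM + 1) with limma 3.58.1 (lmFit, eBayes with trend) in R 4.3.3, two-sided, with Benjamini-Hochberg adjustment over all genes tested; a gene was called if its log2 fold change exceeded 1 in size at an adjusted p under 0.1. The fits were tested on simulated data. Levels and figures used Python 3.11.15, pandas 2.3.3, numpy 2.4.6 and matplotlib 3.10.9.

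The members and the 13 other gene lists were chosen with earlier results of these data known. Named were all members, in each pathway list the called genes and the 3 most abundant, in each marker list the most abundant gene, and the 2 genes most like each member; further marker and milk genes were named after their values were seen. Mucl1 of the salivary type list was not among the genes listed. Positions are from GENCODE M21 on GRCm38. Alternatives were a pseudocount of 0.1, no filter, a filter of 5 TPM, median-of-ratios scaling, a replicate block, all 12 tumors in one fit and leaving out each tumor with the tested genes held fixed.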

Additional observations from a re-analysis of the deposited data

How the results depend on the processing

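No member was called under another pseudocount, filter, scaling, block or fit of all tumors. Genes called for doxorubicin averaged over both antibodies were 6 with a pseudocount of 0.1 and 7 with a filter of 5 TPM, against 13. For DOX/anti-PD-1 versus DOX/IgG1 they were 3 with median-of-ratios scaling and 2 with all 12 tumors in one fit, against 0. For the interaction they were 0 with a pseudocount of 0.1, a filter of 5 TPM or median-of-ratios scaling and 3 with no filter, against 1. Median-of-ratios scaling reversed Prlr for DOX/anti-PD-1 versus anti-PD-1 (-0.0599), Cish for anti-PD-1 versus IgG1 (0.0105) and Gata3 for doxorubicin averaged over both antibodies (-0.11). The cause was not tested.

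Replicate numbers were not shown to pair the tumors: correlations of same-numbered deviations ran from -0.10 to 0.15. For DOX/IgG1 versus IgG1 they were 0.14, 0.01 and 0.12, and 5 of its tumors correlated best with the tumor of their own number. With the replicate block, genes called went from 5 to 2 for DOX/IgG1 versus IgG1 and from 1 to 0 for the interaction; the cause was not tested.

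Leaving out each tumor in turn, genes called ran from 0 to 122 for DOX/IgG1 versus IgG1, 0 to 4 for DOX/anti-PD-1 versus anti-PD-1, 0 to 4 for anti-PD-1 versus IgG1, 0 to 4 for DOX/anti-PD-1 versus DOX/IgG1, 0 to 301 for doxorubicin averaged over both antibodies and 0 to 1 for the interaction. Members called ran from 0 to 2 for DOX/IgG1 versus IgG1 and 0 to 3 for the average. Log2 fold changes that changed sign ran, for DOX/IgG1 versus IgG1, from -0.89 to 0.70 (Stat5a), -1.21 to 0.0305 (Stat5b), -0.91 to 0.63 (Gata3) and -0.12 to 1.69 (Esr1). For DOX/anti-PD-1 versus anti-PD-1 they ran from -0.0267 to 0.16 (Prlr) and -0.25 to 0.0891 (Elf5), and for anti-PD-1 versus IgG1 from -0.31 to 0.20 (Cish) and -0.46 to 0.20 (Prlr). For DOX/anti-PD-1 versus DOX/IgG1 they ran from -0.38 to 1.21 (Stat5a), -0.24 to 1.00 (Stat5b), -0.44 to 1.11 (Gata3), -1.36 to 0.45 (Esr1) and -1.60 to 0.10 (Foxa1). For the average they ran from -0.26 to 0.52 (Gata3), -0.49 to 0.13 (Stat5b) and -0.19 to 0.60 (Stat5a). For the interaction they ran from -0.85 to 0.96 (Esr1), -1.12 to 0.94 (Pgr), -0.19 to 1.40 (Stat5a), -0.23 to 1.32 (Gata3), -1.26 to 0.44 (Foxa1) and -1.14 to 0.00845 (Prlr). The sequencing depth behind the levels is unknown.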
